A study of Mus musculus with 5 samples.

Results

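Alpha-1 antitrypsin and its nearest relatives in mouse liver were followed through 8 genes: the 5 paralogs *Serpina1a*, *Serpina1b*, *Serpina1c*, *Serpina1d* and *Serpina1e*, the contrapsin-like genes *Serpina3k* and *Serpina3m*, and *Serpina6*. They were found by gene symbol and made up 8 of the 32285 genes in each count matrix. The 8 were picked with their chow against MASH values in hepatocyte nuclei already known, so those diet values are given as a description, with no test. Position along the liver lobule and the contrast with another class of nuclei were not used in that choice and were tested.

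The nuclei came from snap-frozen liver of male wild-type C57BL6/J mice, sorted by FACS and profiled with a droplet 3′ kit. Feeding began when the mice were 10 to 12 weeks old and went on for 5 months. The 3 Chow libraries were from mice on regular chow, and the 2 MASH libraries were from mice on the AMYLIN liver NASH diet, in which fat gave 40% and fructose 20% of the energy with 2% cholesterol added and which is used to bring on metabolic dysfunction-associated steatohepatitis (MASH). Whether a library held 1 mouse or several was not stated, so the spread between libraries may be in part technical. No group separated the fat from the fructose or the cholesterol of the MASH diet.

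Serpins are protease inhibitors that present a flexible reactive centre loop as bait and trap the protease that cuts it. Alpha-1 antitrypsin is made chiefly by hepatocytes, secreted into plasma and best known for restraining neutrophil elastase. Humans have a single gene for it, while the mouse carries several near-identical copies whose reactive loops differ. *Serpina3k* and *Serpina3m* belong to the expanded mouse family related to alpha-1 antichymotrypsin, and *Serpina6* encodes corticosteroid-binding globulin, a hormone carrier that does not inhibit proteases.

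All 8 genes lay on chromosome 12 of GRCm38. The 5 *Serpina1* paralogs and *Serpina6* were on the minus strand, from *Serpina6* (chr12:103646630-103657212) to *Serpina1e* (chr12:103946931-103958975), and *Serpina3k* (chr12:104338486-104346144) and *Serpina3m* (chr12:104338486-104394257) were on the plus strand. The gene model of *Serpina1b* (chr12:103728156-103830373) spanned *Serpina1d* (chr12:103763594-103773592) without sharing exon bases with it. *Serpina1a* (chr12:103853589-103863562) and *Serpina1c* (chr12:103894926-103904887) lay between these and *Serpina1e*.

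The coding sequences of the 5 paralogs were 96.3% to 98.5% identical over 1239 aligned bases, so the stretch where they part most is shown. Among all windows of 60 bases it held the most positions that differed between paralogs, 18 against a median of 4. It lies towards the 3′ end of the coding sequence, in the region that encodes the reactive centre loop. Capitals mark the differing positions, and the bases are coding positions 1101 to 1160 of each gene's first listed GENCODE transcript (1170 to 1229 in *Serpina1a*).
Serpina1a: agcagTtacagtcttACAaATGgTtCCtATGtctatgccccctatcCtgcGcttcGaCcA
Serpina1b: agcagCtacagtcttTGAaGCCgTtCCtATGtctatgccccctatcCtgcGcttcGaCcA
Serpina1c: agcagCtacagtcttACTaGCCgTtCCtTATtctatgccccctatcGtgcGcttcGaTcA
Serpina1d: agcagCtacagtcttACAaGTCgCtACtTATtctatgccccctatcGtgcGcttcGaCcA
Serpina1e: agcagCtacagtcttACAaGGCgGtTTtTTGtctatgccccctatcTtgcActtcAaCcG
Such near identity can bear on counting, since a read that matches several copies equally is not assigned to any. In the last 500 bases of the transcripts, where 3′ reads collect, 16.2% of the 50-base windows of *Serpina1e* occurred in another paralog, and the share rose to 41.5% for *Serpina1d*. With 91-base windows the share fell to between 0% for *Serpina1e* and 13.9% for *Serpina1c*. With windows as long as the transcript reads that the methods give for another single-nucleus experiment of the study, none was shared for any of the 5. The read length of these libraries was not given in the sources used here. The diet, zone and class comparisons that follow set each paralog against itself. Ranks, shares and ratios between paralogs are also given, and unequal loss of shared reads could shift those. *Serpina3k*, *Serpina3m* and *Serpina6* shared no such window with another gene. *Serpina1c* overlapped B430119L08Rik on the opposite strand, and *Serpina3k* and *Serpina3m* had 60 exon bases in common.

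The sequence before the transcription start is shown for *Serpina1b* and *Serpina1e*, the paralogs whose chow and MASH levels lay closest together and farthest apart. These are reference bases from RefSeq for GRCm38.p6 on the minus strand, chr12:103738190-103738389 for *Serpina1b* and chr12:103956950-103957147 for *Serpina1e*, read 5′ to 3′ with capitals at the bases that differ.
Serpina1b: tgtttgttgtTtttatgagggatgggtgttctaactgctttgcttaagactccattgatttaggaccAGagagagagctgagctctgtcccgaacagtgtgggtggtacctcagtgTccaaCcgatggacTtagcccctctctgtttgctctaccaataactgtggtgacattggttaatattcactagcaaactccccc
Serpina1e: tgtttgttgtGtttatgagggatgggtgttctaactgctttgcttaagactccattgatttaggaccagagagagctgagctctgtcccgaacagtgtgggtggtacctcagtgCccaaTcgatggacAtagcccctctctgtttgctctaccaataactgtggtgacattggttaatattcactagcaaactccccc
Over 198 aligned bases the stretches differed at 4 positions, and *Serpina1b* held 2 bases that *Serpina1e* lacked. The block ended 1 base before the annotated start of *Serpina1b* but 53 bases before that of *Serpina1e*, so the annotated starts of the pair do not correspond. RefSeq promoter windows, running from 250 bases before the start to 50 after it, were found for 5 of the 8 members, all of them *Serpina1* paralogs. The C/EBP letters TTGCNNAA occurred on either strand in 4 of the 5, with none in *Serpina1c*, against 10.8% of 27025 promoters. The match in *Serpina1a* began 24 bases after the start, and those in *Serpina1b*, *Serpina1d* and *Serpina1e* lay before it. The 5 windows were 91.7% to 98.4% identical in pairs, so they do not count as independent promoters. The STAT letters TTCNNNGAA occurred in none of the 5 and in 8.47% of promoters, which says only that these letters were not in these windows.

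The 5 libraries held 57080 barcodes, of which 56718 had at least 300 genes, and between 35612373 and 49137377 UMIs (unique molecular identifiers, each a counted molecule) per library. Nuclei with at least 2000 UMIs and at least 1 UMI of *Hnf4a*, a hepatocyte transcription factor, were taken as hepatocyte nuclei. They numbered 4222, 6744 and 7006 in Chow 1 to 3 and 2684 and 2611 in MASH 1 and 2, with median depths between 3871.5 and 5475 UMIs. Every library detected the hepatocyte genes *Alb*, *Apob*, *Cps1*, *F2*, *Ttr* and *Abcb11* in them. Levels are in CPM (UMIs of a gene per 1000000 UMIs of the summed nuclei). *Apob* was at 2006, 2396 and 2289 in Chow 1 to 3 and at 1592 and 1340 in MASH 1 and 2. *F2*, *Cps1*, *Alb* and *Hnf4a* were likewise lower under MASH with no overlap of the diets. *Hnf4a* was at 374, 501 and 466 under chow and 284 and 255 under MASH. For *Alb* the gap was narrow, with 2110 in Chow 1 and 2073 in MASH 1. *Ttr* and *Abcb11* overlapped between diets. The diet folds of the members were not set against these genes. Markers of other cells were present too. The 8 endothelial markers, all above 0 in each library, summed to 71.8 to 257 CPM in Chow and 191 to 231 in MASH, and the 7 stellate markers to 73.4 to 120 in Chow and 185 and 208 in MASH. The 7 macrophage markers summed to 27.4 to 41.5 CPM in Chow and to 145 and 56.4 in MASH, with 1 of them at 0 in MASH 2. Of the hepatocyte nuclei, 12.8% to 24.6% of Chow against 44.5% and 54.4% of MASH nuclei carried 2 or more UMIs of markers of other cells. Chow 3 stood apart in acute-phase genes, with *Saa1* at 6701 CPM against 102 to 765 in the other libraries. Pairs of libraries shared 23 to 48 barcode sequences, at most 0.399% of the smaller library.

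Since the kit counts 3′ ends, a level in CPM was not divided by transcript length.

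*Serpina1e* was among the most abundant members under chow and the least abundant *Serpina1* paralog under MASH. Its level was 952, 2738 and 3104 in Chow 1 to 3, and 34.7 and 15.5 in MASH 1 and 2. The diets did not overlap, and Chow 1 was the lowest of the chow libraries well under Chow 2 and Chow 3. The mean was 2264 ± 1152 (SD, n = 3) under chow and 25.1 ± 13.6 (SD, n = 2) under MASH, a 90.2-fold ratio of means. On the edgeR scale, which adjusts for the makeup of each library, the log2 fold (MASH over Chow) was -6.91 (SE 0.94).

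*Serpina1c* was high and fairly even under chow, at 1344, 2041 and 1558. It stood at 337 and 266 under MASH, with a log2 fold of -2.81 (SE 0.45). Both MASH libraries thus lay below every chow library. *Serpina1a* was at 584, 887 and 1132 under chow and 258 and 233 under MASH, with a log2 fold of -2.23 (SE 0.49). *Serpina1d*, the lowest paralog under chow, was at 313, 485 and 411 and then 127 and 111, with a log2 fold of -2.13 (SE 0.38). In both genes the MASH libraries lay close together and the chow libraries spread more widely.

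*Serpina1b* had the narrowest gap of the paralogs. It was at 507, 835 and 909 under chow and at 467 and 345 under MASH, so MASH 1 was only just below Chow 1. The log2 fold was -1.28 (SE 0.47). The 5 paralogs added up to 3700, 6986 and 7116 CPM in Chow 1 to 3 and to 1223 and 971 in MASH 1 and 2.

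*Serpina3k*, a contrapsin-like inhibitor, had the highest mean of all members under chow. Its level was 2352, 3897 and 2525 under chow and 274 and 210 under MASH, with a log2 fold of -3.95 (SE 0.53). After *Serpina1e* it had the widest gap between diets among the 8 genes. *Serpina3m* was at 67.6, 84.9 and 333 under chow and 53.6 and 64.0 under MASH, with a log2 fold of -1.97 (SE 0.80). That distance came mostly from Chow 3, the library with high *Saa1*, and without it the log2 fold was -0.67. *Serpina3n*, an acute-phase relative that is no member, was also high in Chow 3, at 3008 against 239 and 119 in Chow 1 and Chow 2.

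*Serpina6* was the one member whose diets overlapped. It was at 62.9, 16.8 and 19.5 under chow and at 23.9 and 25.3 under MASH, so that Chow 1 was highest and the other chow libraries lay below both MASH libraries. Its log2 fold of -0.67 (SE 0.46) became -0.05 without Chow 1.

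In 7 of the 8 members both MASH libraries fell below all 3 Chow libraries, a pattern seen in 12.6% of the 15414 genes tested. The members were chosen from this contrast, so nothing is read from that count. The median log2 fold was -2.18 over the 8 members and 0.00 over all genes. When hepatocyte nuclei with 2 or more UMIs of other cell types were left out, the log2 fold was -7.21 for *Serpina1e*, -3.98 for *Serpina3k*, -2.91 for *Serpina1c* and -1.25 for *Serpina1b*, against -6.91, -3.95, -2.81 and -1.28 with all hepatocyte nuclei. Fewer nuclei holding a transcript and fewer molecules per nucleus cannot be told apart in such sums, which is why the share of nuclei is given further on.

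**Figure D1:**
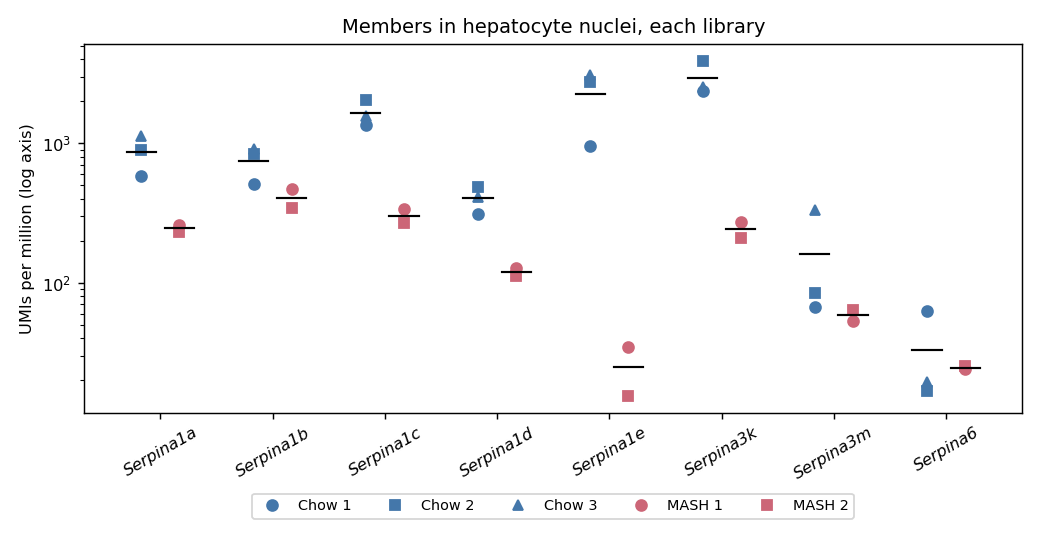
CPM in hepatocyte nuclei on a log axis for the 8 members, with 1 point per library (blue, Chow; red, MASH) and a black line at each group's mean. *Serpina1e* spans from 3104 in Chow 3 to 15.5 in MASH 2, while the points of *Serpina6* overlap.

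Because the paralogs did not drop by equal amounts, the makeup of the *Serpina1* pool differed between diets. *Serpina1e* supplied 25.7%, 39.2% and 43.6% of the UMIs of the 5 paralogs in Chow 1 to 3, and 2.84% and 1.60% in MASH 1 and 2. *Serpina1b* supplied 13.7%, 12.0% and 12.8% under chow and 38.1% and 35.6% under MASH, where it was the leading paralog. The order of the 2 genes was thus inverted, and there were 1.88, 3.28 and 3.41 UMIs of *Serpina1e* for each UMI of *Serpina1b* under chow against 0.0744 and 0.0448 under MASH. These ratios are taken within a library and do not depend on how libraries are scaled. They do set paralogs against each other, so unequal loss of shared reads could shift their size.

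The other 3 paralogs moved less within the pool. *Serpina1c* made up 29.1% ± 7.2 (SD, n = 3) under chow and 27.5% ± 0.10 (SD, n = 2) under MASH, and its libraries overlapped. Shares within a pool depend on each other, so a smaller share of *Serpina1e* raises those of the other paralogs. Set against *Serpina1b*, *Serpina1c* did fall. It had 2.65, 2.44 and 1.71 UMIs for each UMI of *Serpina1b* in Chow 1 to 3, and 0.722 and 0.770 in MASH 1 and 2. *Serpina1a* made up 14.8% ± 1.8 (SD, n = 3) under chow and 22.5% ± 2.0 (SD, n = 2) under MASH. *Serpina1d* made up 7.06% ± 1.34 (SD, n = 3) and 10.9% ± 0.77 (SD, n = 2), and for both genes the MASH libraries lay above all chow libraries. The shares follow from the diet levels that chose the members and were not tested.

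**Figure D2:**
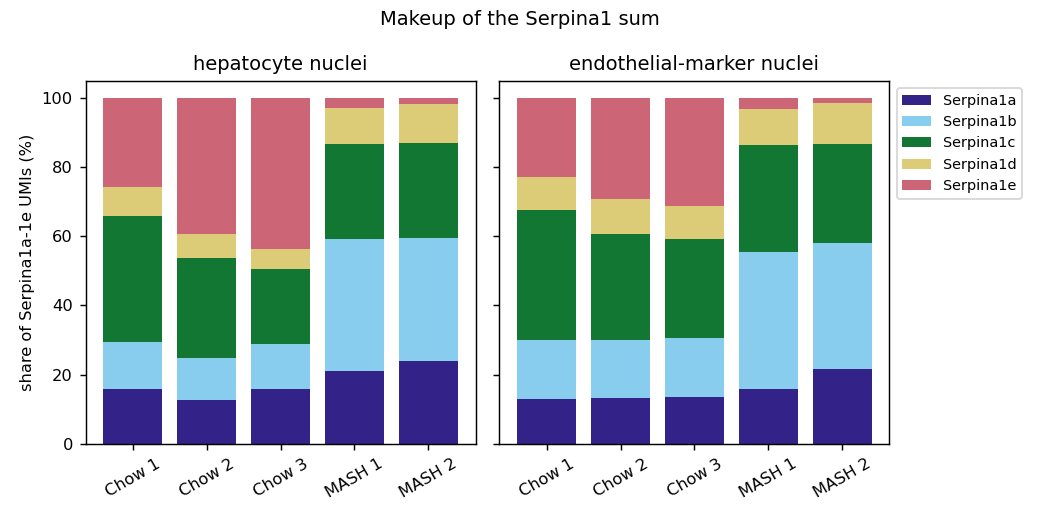
Share of the summed *Serpina1a* to *Serpina1e* UMIs, in percent, that each paralog supplied in each library, for hepatocyte nuclei (left) and endothelial-marker nuclei (right). *Serpina1e* fills 25.7% to 43.6% of the chow bars and at most 2.84% of the MASH bars in hepatocyte nuclei.

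The share of nuclei with at least 1 UMI was compared after each hepatocyte nucleus was thinned at random to 2000 UMIs, which none fell short of. *Serpina1e* was then found in 66.8%, 94.8% and 98.1% of nuclei in Chow 1 to 3 and in 6.74% and 3.26% in MASH 1 and 2. *Serpina3k* was found in 89.1%, 99.8% and 98.2% of chow nuclei and in 42.7% and 31.1% of MASH nuclei. For both genes the chow libraries lay far above the MASH libraries. *Serpina1b* was found in 62.3%, 81.2% and 83.3% under chow and in 61.7% and 49.2% under MASH, so MASH 1 was next to Chow 1. At full depth *Serpina1e* was found in 85.7% to 99.8% of chow nuclei and in 13.5% and 7.66% of MASH nuclei.

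How far these shares stand for expression was checked in a class of nuclei that should lack the genes. Endothelial-marker nuclei were those with at least 500 UMIs, no *Hnf4a* UMI and at least 3 UMIs from at least 2 of 8 endothelial markers. They also had at most 1 UMI from the markers of all other non-hepatocyte classes together. There were 630, 201 and 275 in Chow 1 to 3 and 443 and 650 in MASH 1 and 2, with a median depth of 898, 1218 and 1096 UMIs in the chow libraries. Thinned to 500 UMIs, *Serpina1e* was found in 34.4%, 71.1% and 76.4% of the chow endothelial-marker nuclei, against 34.0%, 67.6% and 75.2% of the chow hepatocyte nuclei. In MASH it was found in 2.71% and 0.77% of endothelial-marker and 1.97% and 0.88% of hepatocyte nuclei. *Serpina3k* was found in 61.7%, 87.6% and 85.1% of chow endothelial-marker nuclei against 59.7%, 84.8% and 71.5% of chow hepatocyte nuclei. In MASH it was found in 25.7% and 9.08% of endothelial-marker and 13.7% and 9.80% of hepatocyte nuclei. For both genes the share in hepatocyte nuclei was near or below that in a class that should lack them, so these shares are not read as shares of expressing nuclei. The source of these molecules in endothelial-marker nuclei was not tested. *Serpina3m* in Chow 3 was found in 15.7% of hepatocyte and 5.82% of endothelial-marker nuclei.

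In UMIs per nucleus the classes did differ. A hepatocyte nucleus held on average 5.38, 12.7 and 17.4 UMIs of *Serpina1e* in Chow 1 to 3, and an endothelial-marker nucleus 1.24, 4.31 and 3.92. In MASH 1 and 2 the values were 0.196 and 0.103 against 0.0858 and 0.0169. Hepatocyte nuclei thus held between 2.28 and 6.09 times as many *Serpina1e* UMIs in each library, but they also held more UMIs in all.

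Relative to all UMIs of a class, 2 of the 8 members were higher in hepatocyte nuclei in edgeR's quasi-likelihood test with library as a block, where 42.2% of the 14936 genes passed (23.7% higher, 18.5% lower). The median of all genes was 0.19 on the log2 scale in this contrast and 0.09 with DESeq2 size factors, so each fold is also given relative to it. *Serpina3m* had a log2 fold of 0.93 (SE 0.23, adjusted p = 0.00153), or 0.74 above the median of all genes. In Chow 3 it was at 333 CPM in hepatocyte nuclei and 98.4 in endothelial-marker nuclei, and without Chow 3 the log2 fold was 0.53. *Serpina6* had a log2 fold of 0.73 (SE 0.24, adjusted p = 0.0129), or 0.54 above that median. Its call was lost without Chow 1 (log2 fold 0.68) and without MASH 2 (0.60), and it rests on as few as 4 UMIs in the endothelial-marker nuclei of Chow 2.

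The other 6 members had log2 folds between -0.33 for *Serpina1d* and 0.21 for *Serpina1e*, and none of them passed the test. *Serpina1d* was called lower in hepatocyte nuclei in 2 of 16 alternatives, without MASH 2 (log2 fold -0.50, adjusted p = 0.0416) and at a minimum of 5000 UMIs (-0.54, adjusted p = 0.0260). *Serpina1c*, for example, was at 1458, 2887 and 2732 CPM in the chow endothelial-marker nuclei, higher than in hepatocyte nuclei of the same libraries. *Alb*, the albumin gene, was likewise higher there, with 4399 CPM in Chow 1 against 2110 in its hepatocyte nuclei. *Ttr* was higher there in each chow library too. The hepatocyte genes *Apob*, *Cps1*, *F2* and *Abcb11* went the other way in each library, with *Apob* in Chow 1 at 1123 CPM against 2006 in hepatocyte nuclei. The chow and MASH gap was present there too, with *Serpina1e* at 882, 2729 and 2948 CPM in Chow 1 to 3 and 57.4 and 12.1 in MASH 1 and 2. Within the pool of those nuclei *Serpina1e* stood at 22.7%, 29.2% and 31.1% of the *Serpina1* UMIs in Chow 1 to 3 and 3.16% and 1.44% in MASH 1 and 2. In each chow library this share was below that in hepatocyte nuclei, whereas *Serpina1b* and *Serpina1d* had larger shares in the endothelial-marker nuclei.

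**Figure D3:**
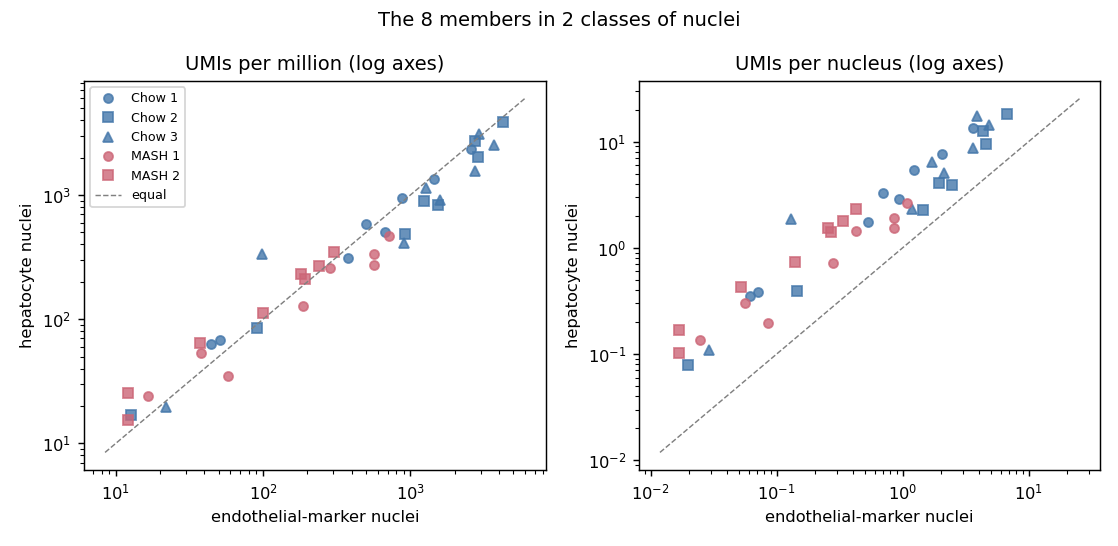
Levels of the 8 members in endothelial-marker nuclei (horizontal) and hepatocyte nuclei (vertical) on log axes, as CPM (left) and mean UMIs per nucleus (right), with 1 point per member and library and a dashed line of equality. Points lie about the line on the left and above it on the right, and the point farthest above it on the left is *Serpina3m* in Chow 3.

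Hepatocytes near the portal vein and near the central vein run different programmes, and secretion of many plasma proteins leans to the portal side. Hepatocyte nuclei were ranked in each library by 9 pericentral and 10 periportal marker genes, with no member among them, and cut into 3 equal bins. The outer bins were compared with library as a block.

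*Serpina1e* had the steepest gradient of the members under chow. In Chow 1 to 3 it was at 1737, 3442 and 3938 CPM in the periportal bin and at 328, 1930 and 2101 in the pericentral bin. The periportal level was 5.29, 1.78 and 1.87 times the pericentral level, so all 3 libraries had the same direction and Chow 1 the widest gap. The log2 fold (pericentral over periportal) was -1.43 (SE 0.23, adjusted p = 0.00106), and it was -0.94 without Chow 1. The pericentral bin of Chow 1 was deeper than its periportal bin, at a median of 5493 against 4506 UMIs, and with markers thinned to 2000 UMIs per nucleus the log2 fold was -1.32.

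In edgeR's quasi-likelihood test, 7 of the 8 members differed between the zones under chow, while 22.9% of 14152 genes did. Of these, 6 were lower in the pericentral bin and 1 was higher, against 10.9% of genes called lower and 12.1% called higher. *Serpina1a* had a log2 fold of -0.57 (SE 0.10, adjusted p = 0.00227) and *Serpina3m* one of -0.58 (SE 0.11, adjusted p = 0.00313). *Serpina1b* and *Serpina1d* had smaller ones, of -0.35 and -0.34, with adjusted p = 0.00918 and 0.00908. *Serpina3k* was at -0.32 (SE 0.10, adjusted p = 0.0391), a call that was lost without Chow 2, Chow 3, MASH 1 or MASH 2, where adjusted p lay between 0.0919 and 0.107. That call passed in 9 of 17 alternatives and was also lost at a minimum of 5000 UMIs (0.150), with at least 2 *Hnf4a* UMIs (0.0565), with the thinned zone score (0.0563) and with no library block (0.993). *Serpina1c* did not pass, at -0.20 (SE 0.08, adjusted p = 0.111).

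*Serpina6*, the corticosteroid-binding globulin gene, ran the other way. It was at 46.0, 14.4 and 13.7 CPM in the periportal bins of Chow 1 to 3 and at 79.6, 18.9 and 26.1 in the pericentral bins. Its log2 fold was 0.66 (SE 0.10, adjusted p = 0.000754), higher on the pericentral side in 3 of 3 libraries. In MASH 1 and 2 it rose from 18.9 and 19.4 to 34.8 and 34.6, a log2 fold of 0.88 (SE 0.15, adjusted p = 0.00398), though neither MASH library alone kept the call (adjusted p = 0.145 without MASH 1 and 0.110 without MASH 2), and it was lost when nuclei with 2 or more UMIs of markers of other cells were left out (0.0659).

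Under MASH 2 of the 8 members passed the zone test, *Serpina6* and *Serpina1c*, while 8.88% of genes did (4.69% higher and 4.18% lower in the pericentral bin). *Serpina1c* was at 448 and 348 in the periportal bins and 232 and 195 in the pericentral bins of MASH 1 and 2. Its log2 fold was -0.87 (SE 0.11, adjusted p = 0.000431), and without MASH 1 it was -0.82 with an adjusted p = 0.0795. *Serpina1e* kept a similar slope at a far lower level, from 52.2 and 26.3 down to 22.4 and 9.25, but its log2 fold of -1.32 (SE 0.38) had an adjusted p = 0.0519. It passed in 7 of 17 alternatives, without Chow 1, Chow 2 or Chow 3 among them. The other 5 members lay between -0.30 and 0.03.

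The zone slopes of chow and MASH were compared directly in a zone by diet term, which 2.16% of genes passed, 1.15% with a positive and 1.01% with a negative difference. *Serpina1c* was the one member that did: its pericentral to periportal ratio was 0.807, 0.985 and 0.958 in Chow 1 to 3 and 0.518 and 0.561 in MASH 1 and 2. The groups did not overlap, and the difference in log2 fold (MASH minus Chow) was -0.67 (SE 0.14, adjusted p = 0.0281). The call was lost without Chow 2 (adjusted p = 0.0682), MASH 1 (0.379) or MASH 2 (0.299), with a difference between -0.75 and -0.62 in those fits. For *Serpina1e* the difference was 0.11 (SE 0.45, adjusted p = 0.945). *Serpina3m* had a difference of 0.61 (SE 0.19, adjusted p = 0.144).

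**Figure D4:**
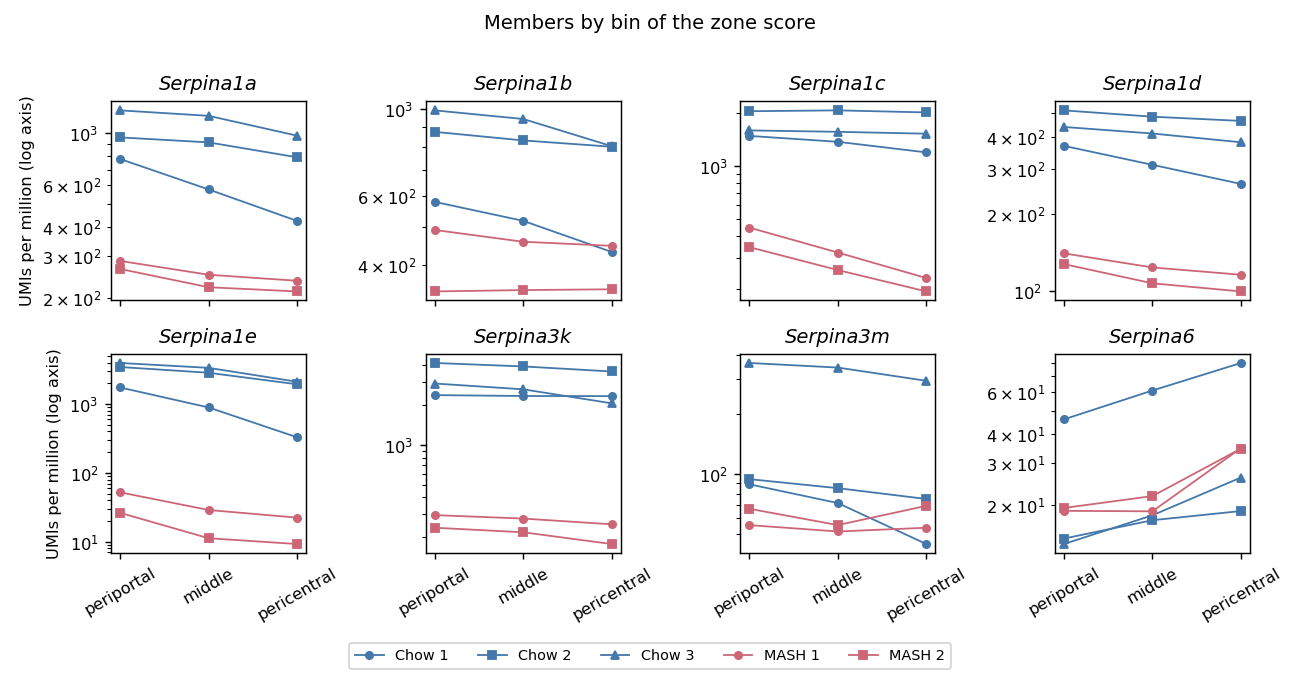
CPM (log axes, 1 panel per member) in the periportal, middle and pericentral bins of hepatocyte nuclei, with 1 line per library (blue, Chow; red, MASH). Lines of *Serpina1e* fall towards the pericentral bin in all 5 libraries, those of *Serpina6* end higher there, and those of *Serpina1c* are near level in Chow 2 and Chow 3 and fall in MASH.

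The genes whose profile lay nearest to that of *Serpina1e* were found over 15 sums, 3 bins in each of 5 libraries, among 9021 genes with a mean of at least 10 CPM. They were *Mup1*, *Egfros*, *Mup7*, *Mup12* and *Mup16*, with a root mean square difference of 0.83, 1.01, 1.05, 1.10 and 1.17 log2 units after each gene was centred on its own mean. Levels were taken as log2(CPM + 1), and the measure includes the size of the diet gap. The *Mup* genes encode major urinary proteins, pheromone carriers secreted by male mouse liver, and are near-identical copies whose counts can be uncertain. *Mup1* was at 73.3, 89.0 and 187 in Chow 1 to 3 and at 0.86 and 0.17 in MASH 1 and 2. Among the members *Serpina3k* was nearest, at 1.60 and after 18 other genes, and *Serpina1b* lay farther off at 2.79. *Serpina6* was the farthest at 3.45. Pearson correlation over the same sums gave another order. It too takes in the diet contrast by which the members were chosen, so nothing is read from high values among members. *Serpina1d* (0.993), *Serpina1a* (0.986), *Serpina1c* (0.979) and *Serpina3k* (0.971) lay above the 5 named genes, of which *Mup12* was highest at 0.968. *Serpina1b* (0.914), *Serpina3m* (0.649) and *Serpina6* (-0.14) lay below them.

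The 4 lists of genes that surround these serpins were read in the same chow against MASH fit, in which 13.7% of the 15414 genes tested passed at an adjusted p under 0.05, 9.26% higher and 4.48% lower in MASH. The lists were drawn up with earlier results of these data known. Of 30 other serpins 23 could be tested, and 12 of these passed (7 lower and 5 higher in MASH).

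Among those lower was *Serpina9*, at 10.5, 28.0 and 8.19 CPM under chow and 0.79 and 0.75 under MASH, with a log2 fold of -4.67 (SE 0.68, adjusted p = 0.00807). *Serpine2*, which encodes the thrombin inhibitor protease nexin-1, had a log2 fold of -3.41 (SE 0.53, adjusted p = 0.0104). *Serping1*, the gene of the C1 inhibitor of complement and contact activation, was at 374, 187 and 447 under chow and 73.9 and 91.9 under MASH, with a log2 fold of -2.41 (SE 0.48, adjusted p = 0.0200). The antithrombin gene *Serpinc1* did not pass, at 0.20 (SE 0.31, adjusted p = 0.695). The median over the 23 genes was -0.37, against 0.00 over all genes.

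Of 18 genes for transcription factors and receptors that act on liver secretory and acute-phase genes, 3 passed and all were lower in MASH. *Onecut1*, which encodes the factor HNF6, was at 538, 1085 and 96.9 under chow and 43.6 and 52.6 under MASH, with a log2 fold of -3.86 (SE 0.89, adjusted p = 0.0305). Chow 3 lay closer to the MASH libraries than to Chow 2, and the call was lost without Chow 2, where the log2 fold was -2.96. *Stat3*, the factor downstream of interleukin-6 receptors, had a log2 fold of -1.73 (SE 0.34, adjusted p = 0.0200), and *Foxa3* one of -1.87 (SE 0.50, adjusted p = 0.0480), which was lost without Chow 2 (log2 fold -1.98), with doublets removed (adjusted p = 0.0546), at a minimum of 5000 UMIs (0.0608) and with at least 2 *Hnf4a* UMIs (0.0543). The growth hormone receptor gene *Ghr* was at -0.01 (SE 0.41) and *Stat5b* at -0.27 (SE 0.32), and neither passed. The median over the list was -0.71, against 0.00 over all genes, with 15 of 18 genes below 0. The share that passed was 16.7%, against 13.7% of all genes tested, so nothing is read from these counts.

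Of 18 genes for folding, quality control and export of secreted proteins in the endoplasmic reticulum, 1 passed. *Syvn1*, which encodes a ubiquitin ligase of the degradation pathway that clears misfolded proteins, was at 409, 403 and 710 under chow and 166 and 117 under MASH, with a log2 fold of -2.24 (SE 0.49, adjusted p = 0.0269). That call was lost without Chow 2 (log2 fold -2.46). *Lman1* and *Mcfd2*, which encode cargo receptors for export, were at -0.15 and -0.89 and did not pass. Of 8 genes for proteases and other partners of these serpins 5 could be tested, and 0 passed in edgeR at the adjusted threshold, while 2 had an unadjusted p under 0.05 and DESeq2 called 1. Every list call named above was lost when either MASH library was left out.

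**Figure D5:**
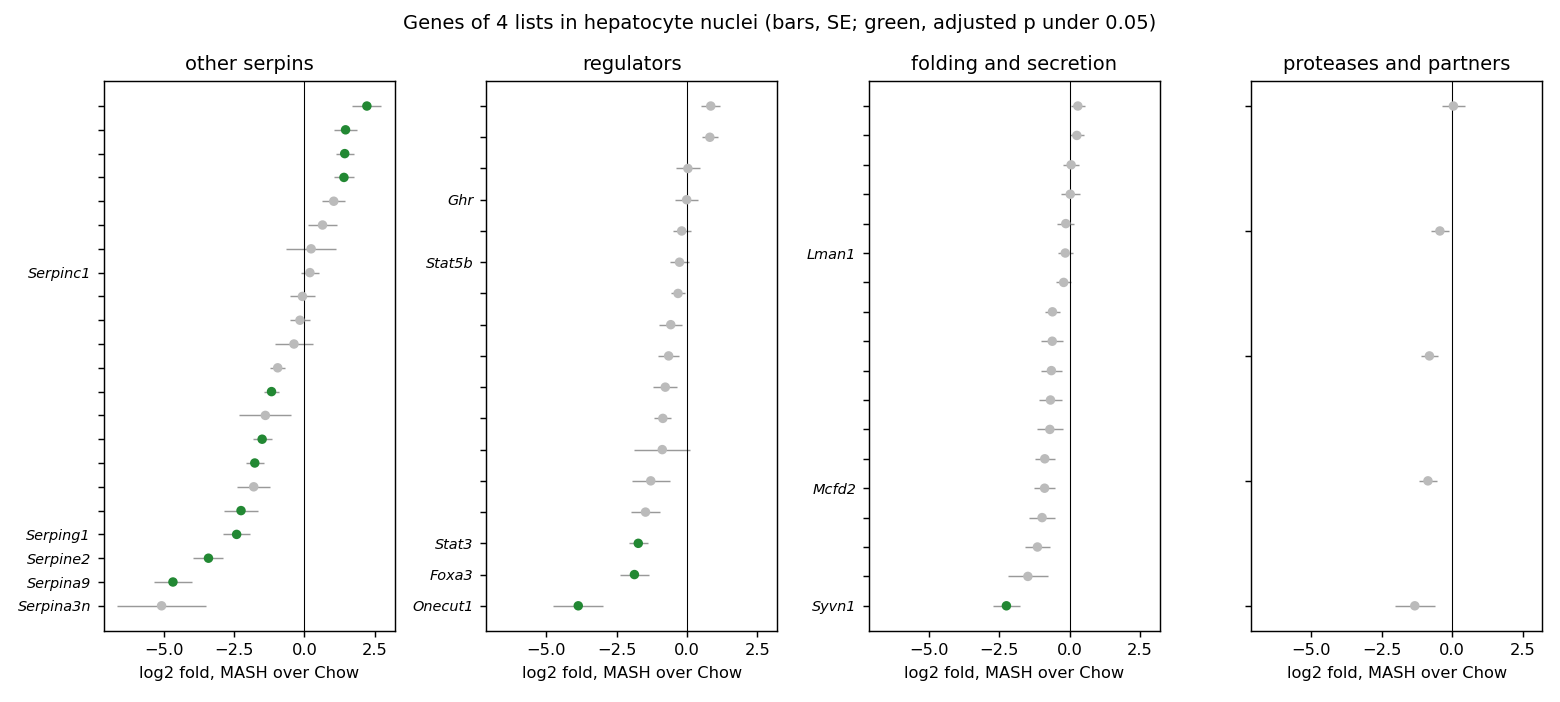
Log2 fold (MASH over Chow) of each tested gene in the 4 lists in hepatocyte nuclei, with bars of 1 SE and green points for an adjusted p under 0.05 (names are given for genes in the text, and 2 genes are not plotted). The lowest of the other serpins is *Serpina3n* at -5.07, which did not pass, and the 3 green points among the regulators are *Onecut1*, *Foxa3* and *Stat3*.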

How the data were processed

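Per the labels and the study's methods, the authors sequenced 5 droplet 3′ libraries of sorted liver nuclei and counted UMIs in exons with Cell Ranger 8.0.1 on GRCm38. The deposited values are raw counts of UMIs per gene and barcode. Counts were summed per library over hepatocyte nuclei, zone bins or other classes, and fitted with edgeR 4.0.16 (quasi-likelihood F test, TMM factors, filterByExpr) in R 4.3.3, with Benjamini-Hochberg adjustment over all genes tested. The diet fit had no block (3 against 2 libraries) and the zone and class fits had library as a block. Each SE is the size of the log2 fold divided by the square root of its F statistic. For the diet folds of the members it is given as a description only. The members and lists were chosen with earlier results of these data known. Named were all 8 members, up to 4 called genes of each list by fold, and the 5 genes nearest to *Serpina1e*. Doublets were kept in the main sums and removed by Scrublet score (scanpy 1.11.5) in an alternative. DESeq2 1.42.0 was another alternative. On simulated counts for the diet comparison (15414 genes, 200 set to change), 10.1% of genes changed by 1 log2 unit and 70.4% of those changed by 2 were recovered. Of the calls 5.95% were false. The diet fit of the data called 2117 genes, so recovery there may differ from these shares. Paralogs were aligned with mafft 7.526, and 32158 of 32285 gene IDs matched GENCODE. *Serpina3h* was not analysed here. Single values of 2 list genes are not reported here, though the list counts and medians include them.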

Additional observations from a re-analysis of the deposited data

Results flagged for a closer look

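*Serpina1c* stood out because its zone difference was not alike in the 2 diets. The log2 fold of the pericentral over the periportal bin was -0.20 (SE 0.08) in Chow and -0.87 (SE 0.11) in MASH, and the difference of -0.67 (MASH minus Chow) passed the zone by diet test of edgeR at an adjusted p = 0.0281. The ratio was below 1 in 5 of 5 libraries and lowest in the 2 MASH libraries. Over the 17 alternatives the difference lay between -0.86 and -0.59 and the adjusted p between 7.47e-05 and 0.9999.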

How the results depend on the processing

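The chow and MASH libraries share the numbers 1 and 2 in the labels, but nothing says that these pair them. Deviations of same-numbered libraries from their group means correlated at -0.13 (number 1) and -0.20 (number 2) over 13759 genes. With only 2 MASH libraries their deviations mirror each other. Unlike-numbered libraries therefore gave the opposite signs, at 0.13 for Chow 1 with MASH 2 and 0.20 for Chow 2 with MASH 1. With the replicate number as a block, 1937 genes differed by diet in place of 2117. The log2 fold was then -6.32 for *Serpina1e* and -0.58 in place of -1.97 for *Serpina3m*. Number 3 occurs only in Chow, so under this block Chow 3 no longer bears on the diet fold. For *Serpina3m* the log2 fold with Chow 3 left out was -0.67.

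The count of genes that differed by diet was 3598 with the DESeq2 test, 3322 with no filter on low counts and 4063 with Storey q-values, and it ranged from 216 to 3298 when a library was left out. The fewest calls came without MASH 2 (216) and MASH 1 (280), followed by Chow 2 (859), and the most without Chow 1 (3298). Leaving out a library gave 0 to 15 other serpins in place of 12, 0 to 6 regulators in place of 3, 0 to 5 folding genes in place of 1 and 0 to 1 proteases and partners in place of 0. Regulators called were 6 with the DESeq2 test, 5 with no filter and 7 with Storey q-values. Folding genes called were 2 with the DESeq2 test and 2 with no filter. Proteases and partners called were 1 with the DESeq2 test and 2 with Storey q-values.

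For the zone test in Chow, 1882 genes in place of 3246 passed with the DESeq2 test, and 166 genes and 0 members with no library block, a fit that ignores that both bins come from the same library. For the zone test in MASH, 1256 genes became 627 with the DESeq2 test, 789 with at least 2 *Hnf4a* UMIs, 545 with mixed nuclei removed, 740 with the zone score at 2000 UMIs and 23 with no library block. When a library was left out the count lay between 161 and 1821. The 2 members called in MASH became 5 with no filter, 4 with outer bins of 4, 1 with mixed nuclei removed and 0 with no library block, and 0 to 6 when a library was left out. For zone by diet, 306 genes became 821 with no filter, 202 with at least 2 *Hnf4a* UMIs, 179 with mixed nuclei removed and 0 with no library block (11 to 683 when a library was left out). The 1 member became 2 with no filter and 0 with no library block (0 to 1 when a library was left out). For hepatocyte against endothelial-marker nuclei, the 2 members became 0 with no library block and 1 with macrophage-marker nuclei (1 to 2 when a library was left out, with *Serpina1d* called lower in place of *Serpina6* without MASH 2). *Serpina1e* was found in 10.6% of MASH hepatocyte nuclei without thinning in place of 5.0%. The cause of these shifts was not tested.

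Signs turned for the following log2 folds, none of which had passed its test. In the MASH zone test this was *Serpina1b* (-0.04, against 0.030 without MASH 1 and 0.015 at a UMI minimum of 5000) and *Serpina3m* (0.03, against -0.015 at a UMI minimum of 1000, -0.0020 with outer bins of 4, -0.024 with the thinned zone score and -0.044 to 0.061 when a library was left out). In zone by diet it was *Serpina1d* (0.05, against -0.075 without Chow 1, -0.041 at 5000 UMIs, -0.017 with 2 *Hnf4a* UMIs, -0.039 without mixed nuclei, -0.017 with outer bins of 4 and -0.0015 with the thinned score, up to 0.11 without a library), *Serpina1e* (0.11, against -0.39 without Chow 1, -0.056 without MASH 1, -0.20 without mixed nuclei and -0.19 with no library block, up to 0.39 without Chow 2) and *Serpina3k* (0.01, against -0.0098 with no filter, -0.10 without Chow 3, -0.082 without MASH 1, -0.034 at 5000 UMIs, -0.0023 without mixed nuclei, -0.014 at a mitochondrial share under 5%, -0.027 with outer bins of 4 and -0.0095 with the thinned score, up to 0.11 without a library). Against endothelial-marker nuclei it was *Serpina1c* (-0.18, against 0.11 with macrophage-marker nuclei), *Serpina1e* (0.21, against -0.021 at 5000 UMIs) and *Serpina3k* (-0.11, against 0.14 without MASH 1, -0.23 without MASH 2 and 0.037 with macrophage-marker nuclei). Few UMIs limit *Serpina1e* in MASH, with 525 and 269 in all hepatocyte nuclei of MASH 1 and 2. With other choices of nuclei the MASH mean share of *Serpina1e* in the *Serpina1* pool lay between 1.73% and 2.31%, against 2.22%.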

Other observations

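Some hepatocyte nuclei carried at least 2 UMIs from at least 2 of the genes *Nrg1*, *Anxa2*, *Gdf15*, *Sox4*, *Klf6* and *Jun*, which mark a disease-associated state. In MASH 1 and 2 *Serpina1e* was at 28.6 and 13.3 CPM in these nuclei and at 49.8 and 21.5 in the other hepatocyte nuclei, a ratio of 0.575 and 0.618. All 8 members had a ratio below 1 in both MASH libraries, from 0.575 to 0.929. In Chow 1 to 3 the ratio for *Serpina1e* was 1.03, 0.979 and 0.876. Apart from *Serpina1e* and *Serpina3m* (1.13) in Chow 1, every member was below 1 in each chow library too. *Serpina1d*, for example, was at 0.872, 0.716 and 0.825 in Chow 1 to 3. The share of all genes with such ratios was not computed, so nothing is read from the count of members. Marked nuclei were deeper than hepatocyte nuclei as a whole in all 5 libraries, and these ratios were not tested.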
